A study of Mus musculus with 4 samples.

Results

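Kupffer cells, the resident macrophages of the liver, carry a set of surface receptors and secreted proteins that sets them apart from other macrophages. The description below covers 10 such genes, Vsig4, Cd5l, Folr2, Fcna, Cdh5, Clec1b, Kcna2, Paqr9, Lepr and Ptprm, of 27998 genes counted. They are named Kupffer-enriched genes other than Clec4f and Timd4, which served here to divide the macrophages. They were picked with their levels in macrophages of both diets already known, so those levels are a description, without a p-value. Libraries were droplet single-cell RNA counts from liver immune cells of C57BL/6J mice, made with the 10x Genomics method. The 2 NASH libraries came from animals given the diet labelled nash-amln (Amylin liver NASH model), which induces non-alcoholic steatohepatitis, and the 2 control libraries from mice whose label reads control diet. All 4 share the same sort, viable cells positive for the leukocyte protein CD45 and negative for the endothelial protein CD146, and a digestion with the transcription inhibitor flavopiridol. The sources used here give neither mouse age nor time on diet. The labels do not state that libraries came from separate mice, so the p-values below measure the spread between libraries, which may be technical.

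Kupffer cells line the liver sinusoids, where they take up particles, microbes and old red cells from the blood. Several of the proteins serve that work. Vsig4 is a complement receptor that captures blood-borne bacteria, Fcna (ficolin A) is a secreted lectin of the complement system, and Cd5l is a secreted scavenger-receptor protein that macrophages release into the blood. In steatohepatitis, macrophages derived from blood monocytes enter the liver and take on part of the Kupffer program, while long-resident cells, marked in mice by Timd4, decline.

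The genes lie on 9 chromosomes and share no cluster in the genome. Of the 10 members, 8 had a promoter sequence in the RefSeq table of build GRCm38.p6, and Cdh5 and Paqr9 are named only. Start regions of 4 members, chosen after their values were seen, are shown to set 2 genes that stayed near or above the control level in NASH macrophages (Cd5l and Clec1b) beside 2 that were far lower (Fcna and Ptprm). Each is the 250 bases before the start site, 5′ to 3′ on the gene's own strand. Capitals mark matches, on either strand, to 5 short motifs searched: GAGGAAG (the core of PU.1 sites), AGGTCA (a nuclear receptor half-site), TGANTCA (AP-1), TGCTGAC (a MAF half-site) and TGGGAA (RBPJ).
Cd5l promoter (chr3:87357631-87357880, plus strand): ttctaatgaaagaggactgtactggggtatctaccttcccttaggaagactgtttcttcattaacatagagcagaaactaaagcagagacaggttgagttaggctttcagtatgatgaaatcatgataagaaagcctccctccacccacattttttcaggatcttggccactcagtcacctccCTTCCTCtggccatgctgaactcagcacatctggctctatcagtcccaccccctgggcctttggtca
Clec1b promoter (chr6:129397047-129397296, plus strand): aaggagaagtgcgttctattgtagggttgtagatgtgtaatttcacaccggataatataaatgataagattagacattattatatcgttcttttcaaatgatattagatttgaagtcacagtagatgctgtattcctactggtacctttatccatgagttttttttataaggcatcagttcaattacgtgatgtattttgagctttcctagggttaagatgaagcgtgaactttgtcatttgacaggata
Fcna promoter (chr2:25627975-25628224, minus strand): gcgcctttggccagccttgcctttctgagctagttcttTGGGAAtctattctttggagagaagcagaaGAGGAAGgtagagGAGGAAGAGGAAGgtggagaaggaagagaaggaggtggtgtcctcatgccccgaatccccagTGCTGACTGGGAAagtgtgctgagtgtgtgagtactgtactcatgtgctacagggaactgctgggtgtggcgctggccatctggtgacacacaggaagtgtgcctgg
Ptprm promoter (chr17:67354460-67354709, minus strand): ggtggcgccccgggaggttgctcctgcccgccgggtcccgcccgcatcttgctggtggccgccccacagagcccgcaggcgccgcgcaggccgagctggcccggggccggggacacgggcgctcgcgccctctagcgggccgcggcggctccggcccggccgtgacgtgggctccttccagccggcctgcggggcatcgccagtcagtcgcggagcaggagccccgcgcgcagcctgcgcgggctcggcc
The Fcna window held 3 matches to GAGGAAG, of which 2 overlap by a single base, with 1 match to TGCTGAC directly before 1 of its 2 matches to TGGGAA. The Cd5l window held 1 match to GAGGAAG, on the opposite strand, and the Clec1b and Ptprm windows held none of the 5 motifs. Among 32851 promoter windows of the same length, 10.6% held GAGGAAG, 14.0% AGGTCA, 6.75% TGANTCA, 3.81% TGCTGAC and 21.6% TGGGAA. Base composition differed widely, with 81.2% G and C and 37 CpG pairs for Ptprm, 54.4% with 3 for Fcna, 46.8% with 0 for Cd5l and 33.2% with 5 for Clec1b, against medians of 52.4% and 6 over all windows. The RefSeq start of Fcna lies inside the GENCODE gene, so its window takes in the 5′ end of that gene model. A match describes letters only and is no evidence of binding.

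After filters 6158 cells were kept, of which 3575 were macrophage-like by C1q and other macrophage markers. They numbered 719 and 1010 in the NASH libraries and 975 and 871 in the control libraries. The members took no part in clustering or naming. Macrophage-like cells held a median of 8234 and 7524 unique molecular identifiers (UMIs, captured transcripts) per cell in NASH, against 3151 and 2847 in control. Levels below are therefore CPM, the UMIs of a gene per 1000000 UMIs of the cells summed. Libraries shared 2 to 8 cell barcodes per pair. The control libraries stood apart from each other: the cluster led by Marco, Cxcl13 and Hmox1 held 147 and 723 cells of control libraries 1 and 2, and the cluster led by Fkbp5, Fosb and Abhd11os held 792 and 81. Erythroid markers summed to 79.4 and 76.6 CPM in NASH and 96.7 and 4473 CPM in control macrophage-like cells. Summed hepatocyte markers were 588 and 462 CPM in NASH against 1251 and 1077 CPM in control, and their part in the results was not tested.

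The question put to the members was which hold and which are lost in NASH macrophages. Fcna, Cdh5, Paqr9, Lepr and Ptprm were far lower in NASH, at 8.75% to 27.1% of their control CPM. Cd5l, Folr2 and Clec1b stayed near or above control, and Vsig4 and Kcna2 lay between, at 56.0% and 60.4% of control. The median mitochondrial share of macrophage-like cells, a sign of RNA quality, was 3.601% and 3.24% in NASH against 6.32% and 6.23% in control. With cells held to at least 500 genes and at most 5% mitochondrial UMIs, the log2 values were -2.54 for Fcna, -1.57 for Cdh5, -1.26 for Paqr9, -2.77 for Lepr and -2.44 for Ptprm. Fold changes come from edgeR with TMM scaling, which moves every gene up by about the same amount: the median log2 fold change of 10247 genes was -0.02 with the factors and -0.40 without. Of the 10 members, 6 were past the threshold as lower (adjusted p under 0.05) and 2 as higher, where 44.1% of all genes were past it, 21.1% as lower and 23% as higher. Since the members were chosen on this contrast, nothing is read from that count, and Vsig4, Clec1b, Kcna2 and Lepr changed side of the threshold when single libraries were left out. The limits of 500 genes and 5% mitochondrial UMIs left 594 and 904 NASH and 236 and 241 control macrophage-like cells. Folr2 and Clec1b were no longer past the threshold with them, nor with macrophages chosen cell by cell. With that choice Lepr no longer passed either, and Kcna2 did. Over the alternatives that kept all 4 libraries, log2 ran from 0.37 to 0.82 for Folr2 and from 0.37 to 0.79 for Clec1b. Without scaling factors, 24.5% of all calls were higher in place of 52.1%.

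**Figure D1:**
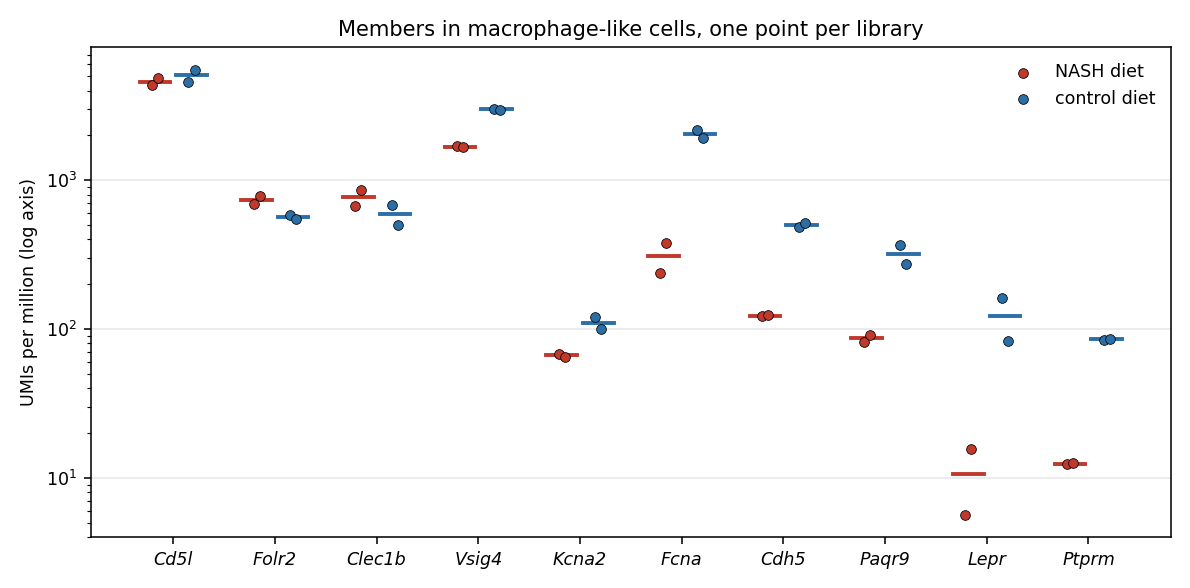
CPM (log axis) of each of the 10 members in macrophage-like cells, with 1 point per library, NASH (red) left of control (blue), and bars at the means. The 5 genes at the right, from Fcna to Ptprm, sit far below control in both NASH libraries, with Lepr at 5.63 and 15.7 against 161 and 83.2.

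Among secreted products, Fcna (mm10, chr2:25624666-25628030, minus strand) measured 239 and 380 CPM in NASH and 2176 and 1914 CPM in control. All NASH values lay below all control values, with a log2 fold change of -2.35 (SE 0.214). Its antisense neighbour Fcnaos shares 90 exonic bases, and the use of strand in counting is not given in the sources. Cd5l (chr3:87357881-87371073, plus strand) behaved otherwise, at 4349 and 4868 CPM in NASH against 4582 and 5539 CPM in control. The diets overlapped, and the log2 value was 0.24 (SE 0.151) with TMM factors but -0.14 without them, so its direction depends on the scaling.

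Among receptors that capture material from blood, Vsig4 (chrX:96247203-96293438, minus strand) was at 1698 and 1662 CPM in NASH and 3010 and 2988 CPM in control. NASH was lower in both libraries (log2 -0.46, SE 0.137, or -0.84 without factors). Folr2 (chr7:101839988-101857194, minus strand), the folate receptor beta of tissue-resident macrophages, was at 690 and 789 CPM in NASH and 586 and 545 CPM in control. It was the only member with both NASH libraries above both control libraries in CPM, with log2 0.76 (SE 0.143), or 0.39 without factors. Clec1b (chr6:129397297-129409335, plus strand) encodes CLEC-2, the receptor for podoplanin that signals through the kinase Syk and is best known on platelets. It was at 671 and 861 CPM in NASH and 684 and 497 CPM in control, so the libraries overlapped (log2 0.75, SE 0.186, and 0.37 without factors). Platelet markers summed to 0.80 and 0.37 CPM in NASH and 1.76 and 2.92 CPM in control macrophage-like cells, with 5 or 6 of 8 at 0 in each library. The annotation gives Clec1b 184 exonic bases in common with Clec9a on the same strand.

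Among adhesion and signalling proteins of the membrane, Cdh5 (chr8:104101625-104144511, plus strand), the VE-cadherin of endothelial junctions, was at 122 and 124 CPM in NASH and 486 and 515 CPM in control. The log2 fold change was -1.65 (SE 0.136). Endothelial markers were also lower in NASH macrophage-like cells, at 116 and 106 CPM summed over 15 genes against 317 and 339 CPM. Cdh5 was at 105% and 117% of that sum in NASH and 153% and 152% in control macrophage-like cells, whereas in endothelial-like cells it was at 3.56% to 6.03%. The receptor phosphatase Ptprm (chr17:66666947-67354457, minus strand), which binds its own kind on adjoining cells, was at 12.4 and 12.6 CPM in NASH and 84.4 and 86.2 CPM in control (log2 -2.40, SE 0.159). Its values within each diet lay close together, although they rest on 77 and 101 UMIs in NASH.

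Lepr (chr4:101717404-101815352, plus strand), the leptin receptor, was at 5.63 and 15.7 CPM in NASH, from 35 and 126 UMIs, and at 161 and 83.2 CPM in control. Both NASH values were below both control values, and the log2 fold change was -3.11 with an SE of 0.676, the largest SE of the 10. Leaving out 1 library at a time gave log2 values from -4.03 to -2.54. Paqr9 (chr9:95559657-95568023, plus strand), of the family of progestin and adipoQ receptors, was at 82.0 and 91.9 CPM in NASH and 369 and 272 CPM in control (log2 -1.51, SE 0.169). Kcna2 (chr3:107101146-107115005, plus strand), a voltage-gated potassium channel subunit, was at 68.2 and 65.0 CPM in NASH and 120 and 100 CPM in control. Its NASH libraries were both lower, with log2 -0.36 (SE 0.143), or -0.73 without factors.

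NASH macrophage-like cells yielded 2.50 times as many UMIs in all, and 5 members were above control in UMIs per cell: Folr2 at 6.12 against 1.88 UMIs per cell, Clec1b at 6.32 against 1.98, Cd5l at 38.1 against 16.7, Kcna2 at 0.55 against 0.37 and Vsig4 at 13.9 against 9.95. The other 5 stayed lower even so, with Fcna at 2.54 against 6.81, Cdh5 at 1.02 against 1.66, Paqr9 at 0.72 against 1.07, Lepr at 0.087 against 0.41 and Ptprm at 0.10 against 0.28 UMIs per cell. Whether cells held more RNA or were captured more deeply cannot be told apart.

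**Figure D2:**
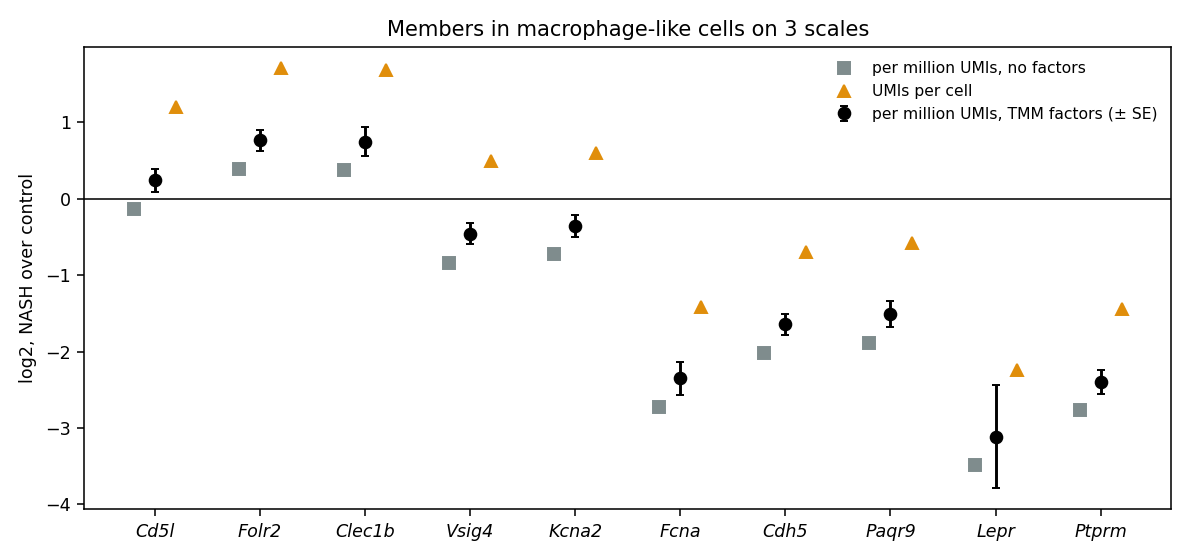
log2 of NASH over control for each member in macrophage-like cells on 3 scales: CPM without factors (squares), with TMM factors (circles, bars ± SE) and UMIs per cell (triangles). Fcna, Cdh5, Paqr9, Lepr and Ptprm lie below 0 on all 3 scales, and Cd5l, Vsig4 and Kcna2 change side between scales.

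To compare detection at 1 depth, cells were thinned to 1000 UMIs, leaving out shallower ones. Fcna was found in 16.4% and 22.8% of NASH and 82.1% and 77.5% of control macrophage-like cells. The unthinned shares were 46.2% and 52.0% in NASH and 96.1% and 91.8% in control. Lepr was found in 0.51% and 1.16% of thinned NASH cells and 15.3% and 7.84% of control cells, and unthinned in 2.92% and 4.85% against 35.6% and 17.3%. In B cell-like cells, which should lack both genes, Fcna was in 1.01% and 0.48% of thinned NASH cells and 11.3% and 5.12% of control cells, and Lepr rested on 0 to 6 UMIs per library. Those cells had medians of 5478 and 5373 UMIs in NASH and 3343 and 2730 in control. In NASH, Lepr was at 2.92 and 9.88 CPM in B cell-like cells, from 1 and 6 UMIs. It was at 5.63 and 15.7 CPM in macrophage-like cells of the same libraries. In control B cell-like cells Lepr was at 12.1 and 0 CPM, from 2 and 0 UMIs. Over the 10 members, 8 had lower thinned shares in both NASH libraries than in both control libraries, the exceptions being Folr2 and Clec1b. The same count was not made over all genes, so nothing is read from it. Thinned shares carry no scaling factors, and without factors the median log2 fold change of all genes was -0.40. With no thinning, Vsig4 was in 72.9% and 68.1% of NASH and 98.7% and 96.7% of control cells.

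Macrophage-like cells were next divided by Clec4f, a lectin particular to Kupffer cells, and by Timd4, the phosphatidylserine receptor of long-resident ones, taking at least 1 UMI as positive. Cells with both made up 14.6% and 19.6% of NASH macrophage-like cells and 70.4% and 66.2% of control ones. Cells with Clec4f alone made up 59.4% and 56.7% in NASH and 29.1% and 31.3% in control. Cells without Clec4f made up 26.0% and 23.7% in NASH but 0.51% and 2.41% in control, from 5 and 21 cells. Deeper NASH cells pass such a gate more easily, and with cells thinned to 2000 UMIs the share positive for both was 6.54% and 9.82% in NASH against 57.1% and 60.0% in control.

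Within cells positive for both genes, Vsig4 and Kcna2 came close to control. Vsig4 was at 2800 and 2892 CPM in NASH and 3088 and 3101 CPM in control, with a log2 value of 0.19 (SE 0.164) and of -0.12 without factors. Kcna2 was at 127 and 106 CPM in NASH and 115 and 105 CPM in control, with overlapping libraries (log2 0.38, SE 0.180, and 0.07 without factors). In cells with Clec4f alone Vsig4 averaged 1794 CPM in NASH and 2912 CPM in control, with log2 -0.28 with and -0.70 without factors. Kcna2 averaged 71.7 CPM in NASH and 117 CPM in control there, with log2 -0.31 with and -0.73 without factors.

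Cd5l, Folr2 and Clec1b exceeded control in those same cells. Cd5l was at 7295 and 7663 CPM in NASH and 4680 and 5823 CPM in control (log2 0.82, SE 0.180), and its diets no longer overlapped. Folr2 was at 1384 and 1531 CPM in NASH and 619 and 598 CPM in control (log2 1.57, SE 0.165). Clec1b was at 895 and 1127 CPM in NASH and 704 and 516 CPM in control (log2 1.04, SE 0.189). Without factors the 3 log2 values were 0.51, 1.26 and 0.73.

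The remaining 5 members were lower in NASH even in cells positive for both Clec4f and Timd4. Fcna was at 507 and 957 CPM in NASH and 2304 and 2090 CPM in control (log2 -1.27, SE 0.260). Cdh5 was at 245 and 239 CPM in NASH against 498 and 533 CPM (log2 -0.78, SE 0.157), and Paqr9 at 171 and 180 CPM against 357 and 276 CPM (log2 -0.54, SE 0.172). Lepr was at 8.20 and 23.8 CPM in NASH against 161 and 87.2 CPM (log2 -2.53, SE 0.498), and Ptprm at 19.5 and 25.7 CPM against 79.5 and 85.2 CPM (log2 -1.52, SE 0.227). No NASH library of these 5 genes reached either control library. The share of all genes separated in this way was not counted, so nothing is read from that separation. The medians over all genes in this gate were -0.03 with and -0.35 without factors.

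**Figure D3:**
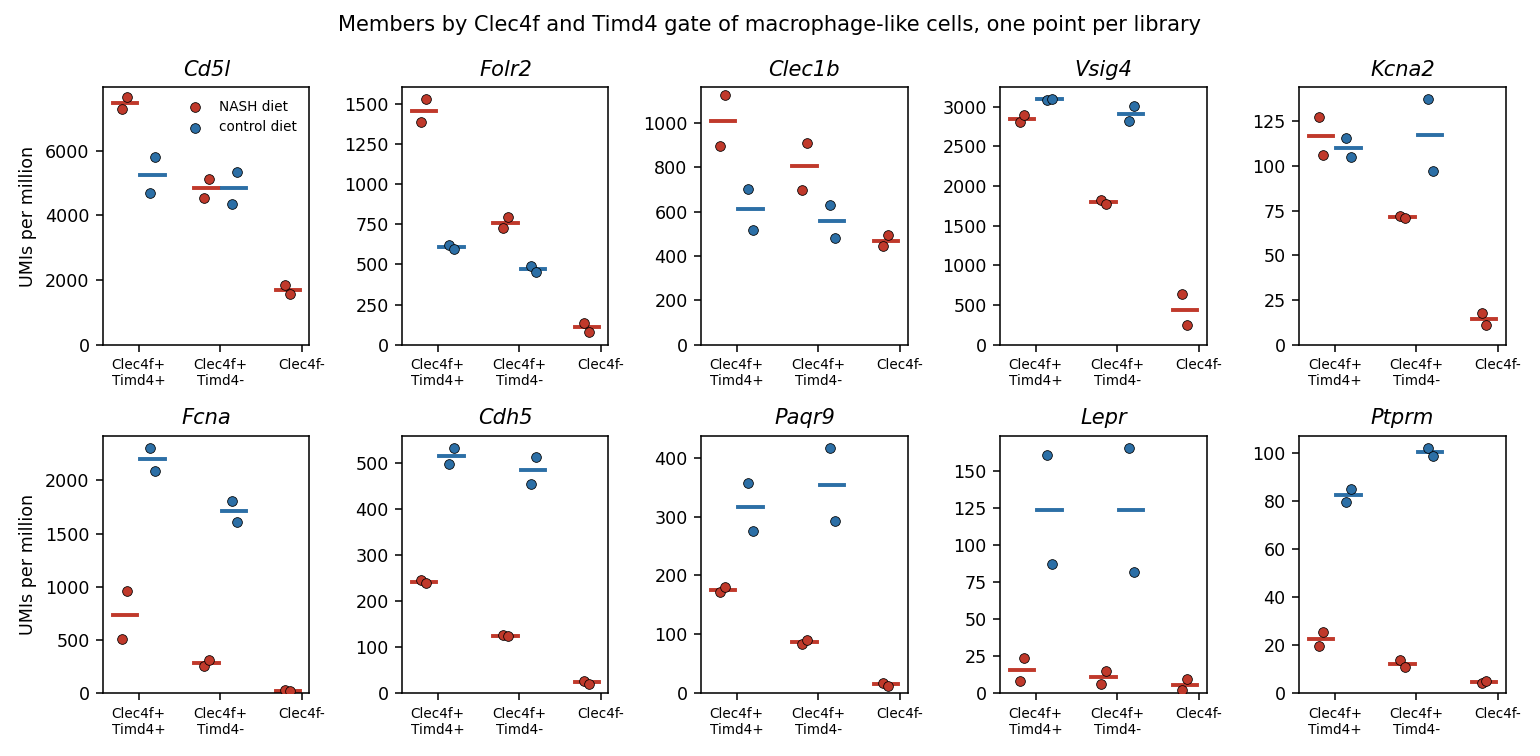
CPM (linear axes from 0) of each member in macrophage-like cells with Clec4f and Timd4, with Clec4f only and without Clec4f, 1 point per library and bars at the means; the 5 and 21 control cells without Clec4f are not drawn. Vsig4 and Kcna2 lie near control in cells with both genes, Cd5l, Folr2 and Clec1b exceed it, and the lower row stays below it.

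Within both NASH libraries 9 of the 10 members were lower in cells without Clec4f. Lepr could be compared in library 2 alone, because library 1 had 3 or fewer UMIs there. The members were chosen as Kupffer-enriched and Clec4f is a Kupffer gene, so this direction was largely given by the choice. The share of all genes lower in cells without Clec4f was not counted. Fcna differed most, at 304 and 481 CPM in cells with Clec4f and 26.2 and 22.6 CPM in cells without, log2 ratios of 3.54 and 4.41. Folr2 was at 859 and 990 CPM with Clec4f and 137 and 80.9 CPM without, and Paqr9 at 102 and 114 CPM against 17.2 and 13.02 CPM. Clec1b differed least of the 9 genes measured in both libraries, at 740 and 965 CPM with Clec4f and 445 and 494 CPM without, log2 ratios of 0.73 and 0.97. Lepr in library 2 was at 17.4 CPM with and 9.62 CPM without Clec4f, but at 15.6 and 15.9 CPM when the gate was set on cells thinned to 2000 UMIs, so that difference rests on the gate.

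The 4 macrophage-like clusters made up mostly of NASH cells ordered most members alike. The cluster led by Apoc1, Wfdc17 and Ccl24 had the highest level of Cd5l (7839 CPM), Folr2 (1627 CPM), Fcna (835 CPM), Cdh5 (269 CPM) and Vsig4 (2852 CPM) of the 4, and the cluster led by Cx3cr1, Olfml3 and Ms4a7 the lowest, at 1819, 112, 34.2, 30.1 and 472 CPM. The cluster led by Trem2, Ear2 and Apoe kept Vsig4 at 2607 CPM and Kcna2 at 97.5 CPM while Fcna was at 157 CPM. In the cluster led by Mmp12, Mmp13 and Gpnmb, Vsig4 was at 1156 CPM and Fcna at 158 CPM. For these 5 genes the highest and lowest cluster of the 4 were the same within each NASH library. The cluster led by Apoc1, Wfdc17 and Ccl24 also held 28 and 37 control cells. There the diets overlapped for Cdh5, at 286 and 261 CPM in NASH and 201 and 272 CPM in control. They overlapped for Paqr9 too, at 170 and 176 against 218 and 163 CPM, from 13 and 15 control UMIs. Fcna stayed lower, at 663 and 898 against 1306 and 1526 CPM. Lepr and Ptprm rested on 1 or 2 UMIs in each control library. Lepr is given by library, since the NASH libraries differed: it was at 2.59 to 9.48 CPM over the 4 clusters in library 1, from 4 to 19 UMIs, and at 13.2 to 21.3 CPM in library 2. In the cluster led by Fkbp5, Fosb and Abhd11os Lepr was at 169 CPM in control library 1 and 120 CPM in control library 2, and in the cluster led by Marco, Cxcl13 and Hmox1 at 143 and 86.7 CPM. The pooled values carry no replicate error.

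Cycling C1q-high cells formed a cluster led by cell cycle genes, with 78 and 103 NASH and 55 and 54 control cells. They lay outside the macrophage-like class and were tested, although they come from the same libraries. Each C1q gene was found in at least 96.2% of them, and the members were chosen with macrophage levels known. The p-values in these cells therefore repeat that choice in part and are no independent support. There 5 members fell and 2 rose, where 8.97% of 6636 genes fell, 10.4% rose and 19.4% passed in either direction (edgeR quasi-likelihood test, Benjamini-Hochberg over all genes of the class). Ptprm was at 9.40 and 7.89 CPM in NASH against 76.9 and 77.6 CPM (log2 -2.90, SE 0.367, edgeR adjusted p = 5.28e-05). Fcna was at 319 and 255 CPM against 1175 and 972 CPM (log2 -1.66, edgeR adjusted p = 6.83e-06), and Cdh5 at 102 and 83.2 CPM against 289 and 310 CPM (log2 -1.45, edgeR adjusted p = 0.000159). Paqr9 (log2 -1.13, edgeR adjusted p = 0.0102) and Lepr (log2 -1.45, edgeR adjusted p = 0.0129) fell as well. Folr2 rose to 591 and 466 CPM in NASH against 234 and 265 CPM (log2 1.33, edgeR adjusted p = 0.000155), and Clec1b to 481 and 485 CPM against 337 and 196 CPM (log2 1.10, edgeR adjusted p = 0.00200). Vsig4 (log2 -0.24, SE 0.228), Cd5l (0.32, SE 0.134) and Kcna2 (-0.42, SE 0.472) did not pass, at edgeR adjusted p = 0.506, 0.105 and 0.571. Paqr9 did not pass without NASH library 1 (edgeR adjusted p = 0.0657) or control library 1 (0.191), nor Lepr without NASH library 1 (0.0747). Both were also lost under DESeq2 (adjusted p = 0.067 for Paqr9 and 0.0648 for Lepr), and Lepr at Leiden resolution 0.5 (log2 -0.72, edgeR adjusted p = 0.338) and with no doublets removed (-1.08, 0.169). With cells held to at most 5% mitochondrial UMIs and at least 500 genes, which left 10 and 15 control cells, Folr2 (log2 0.47), Clec1b (0.54), Paqr9 (-1.12), Lepr (-0.10) and Ptprm (-2.18) did not pass, at edgeR adjusted p from 0.0894 to 0.97. Vsig4 passed as lower without NASH library 1 (0.0369) and Cd5l as higher without control library 2 (0.0478). Genes called numbered 793 and 767 without NASH library 1 and 2, against 1287 with all 4 libraries.

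Endothelial-like cells that had passed the sort against CD146, 60 and 43 in NASH and 55 and 122 in control, gave a different result for Clec1b. Clec1b fell to 286 and 180 CPM in NASH, against 608 and 477 CPM in control, with a log2 fold change of -1.11 (SE 0.252, edgeR adjusted p = 0.0109). Of 4491 genes, 5.57% fell, 4.63% rose and 10.2% passed in either direction. Cdh5 fell there too, to 324 and 338 CPM in NASH against 594 and 637 CPM in control (log2 -0.82, SE 0.202, edgeR adjusted p = 0.0172). Folr2 rose to 209 and 104 CPM in NASH against 70.2 and 64.3 CPM in control (log2 1.36, SE 0.364, edgeR adjusted p = 0.0280). The other 4 members tested did not pass: Fcna (log2 -1.43, edgeR adjusted p = 0.0510), Ptprm (-0.95, 0.189), Cd5l (1.01, 0.171) and Vsig4 (0.20, 0.873). Lepr, below the filter on low counts, was at 33.6 and 30.7 CPM in NASH and 32.7 and 33.7 CPM in control, from 14, 8, 7 and 11 UMIs.

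The endothelial markers were themselves lower in NASH endothelial-like cells, at 5372 and 6190 CPM summed against 14304 and 17872 CPM, and their part in the Clec1b and Cdh5 results was not tested. Vsig4, a macrophage gene, was at 408 and 180 CPM in NASH and 398 and 174 CPM in control endothelial-like cells. At the ratio to Vsig4 found in macrophage-like cells of the same library, Folr2 would come to 166 and 85.6 CPM in NASH and 77.4 and 31.8 CPM in control, and the Folr2 measured was above this in 3 of the 4 libraries. Clec1b would come to 161 and 93.4 CPM in NASH and 90.4 and 29.0 CPM in control. Cdh5 would come to 29.4 and 13.5 CPM in NASH and 64.2 and 30.1 CPM in control. These Clec1b and Cdh5 values were all under the levels observed. Cd5l would come to 1045 and 528 CPM in NASH, beside 1330 and 691 CPM measured. In control it would come to 605 and 323 CPM, beside 711 and 373 CPM measured. The Clec1b call was lost without NASH library 2 (log2 -0.77, edgeR adjusted p = 0.144), and the Cdh5 call without NASH library 1 (0.171) or 2 (0.139). The Folr2 call was lost without NASH library 1 (log2 0.69, edgeR adjusted p = 0.543), which also moved the number of genes called to 254. The class itself varied with the settings: in 5 of them the NASH libraries kept 29 to 35 and 14 to 17 endothelial-like cells in place of 60 and 43, while control kept 42 to 50 and 92 to 115. Folr2 came to log2 0.26 with the members among the clustering genes, 0.62 at Leiden resolution 2.0, 0.59 with no limit on mitochondrial share and 0.39 with no doublets removed (edgeR adjusted p from 0.493 to 0.836). Without NASH library 1, Fcna passed as lower (4e-05), as it did without NASH library 2 (0.0472) or control library 2 (2.9e-08). Cd5l passed as higher without NASH library 2 (9.18e-05) or control library 1 (1.27e-08), and Vsig4 without control library 1 (0.0379).

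The difference in direction was tested itself, with library as a block. Its cycling C1q-high side shares the limit given above for those cells. For Clec1b the log2 fold change in endothelial-like cells minus that in cycling C1q-high cells was -2.29 (SE 0.297, edgeR adjusted p = 2.43e-05, 1.12% of 5639 genes past the threshold). No other member passed this test with all 4 libraries. Without control library 1, Cd5l (1.25, edgeR adjusted p = 0.000142) and Vsig4 (1.09, 0.0351) passed with a higher value in endothelial-like cells. For Cdh5, which was lower in both classes, the difference was 0.61 (SE 0.288, edgeR adjusted p = 0.362), and for Folr2 it was -0.04 (SE 0.407, edgeR adjusted p = 0.993). Of all Clec1b UMIs in kept cells, endothelial-like cells held 1.21% in NASH and 6.67% in control, where they were 3.00% and 6.49% of kept cells.

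**Figure D4:**
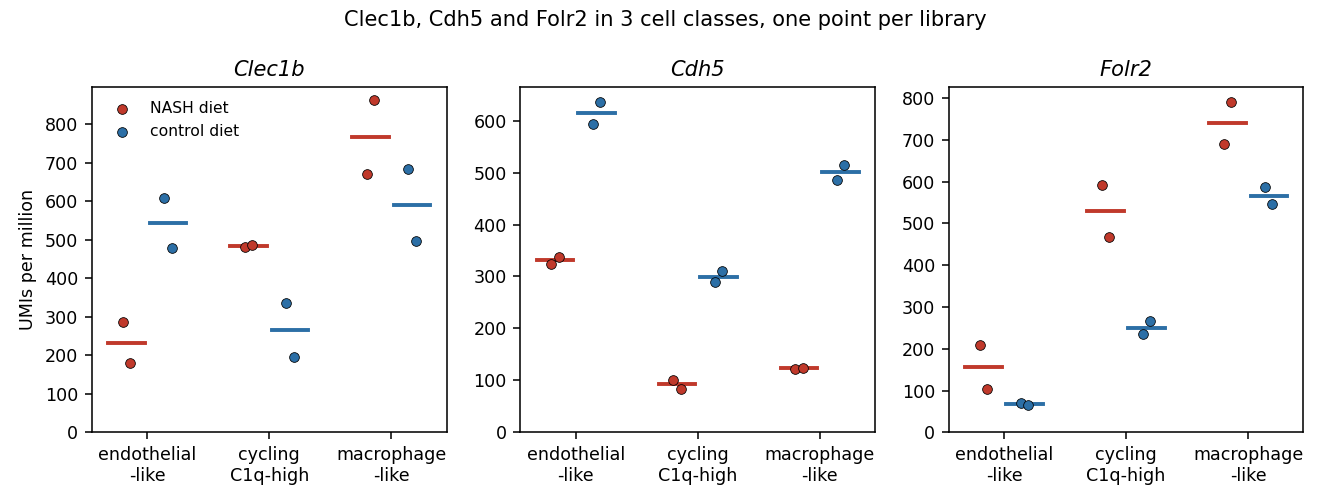
CPM (linear axes from 0) of Clec1b, Cdh5 and Folr2 in endothelial-like, cycling C1q-high and macrophage-like cells, 1 point per library, NASH (red) left of control (blue), bars at the means. Clec1b is lower in NASH in endothelial-like cells (286 and 180 against 608 and 477) and higher in cycling C1q-high cells, while Cdh5 is lower in all 3 classes.

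Across the other classes most members were low. Macrophage-like cells held 50.4% of kept NASH cells and 67.7% of kept control cells, but 84.7% and 93.1% of Vsig4 UMIs in NASH and control, and 82.2% and 91.4% of Folr2 UMIs. Lepr was the exception in NASH, where macrophage-like cells held 42.8% of its UMIs, against 88.3% in control, and monocyte-like cells held 18.1% against 0.23%. Monocyte-like cells made up 10.1% of kept cells in NASH and 0.73% in control. Monocyte-like Lepr was at 18.9 and 35.5 CPM in NASH. The class was not tested, since control library 1 held 8 monocyte-like cells, under the minimum of 10 cells in each library. Cdh5 stood out in plasmacytoid dendritic cell-like cells, at 89.5 and 91.8 CPM in NASH and 86.7 and 94.9 CPM in control. The diets overlapped there, with a log2 difference of -0.11 (SE 0.264, edgeR adjusted p = 0.930). Vsig4 in the same cells was at 38.2 to 63.0 CPM over the 4 libraries.

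Fcna passed as lower in B cell-like cells (log2 -3.33, edgeR adjusted p = 0.000362), where 8.01% of 2760 genes fell, 9.35% rose and 17.4% passed in either direction. It passed as lower in dendritic cell-like cells (-2.75, edgeR adjusted p = 0.0120, with 1.03% of 6206 genes lower) and plasmacytoid dendritic cell-like cells (-3.09, edgeR adjusted p = 0.000808, with 2.21% of 3530 genes lower). Fcna was at 8.76 and 8.24 CPM in NASH and 109 and 50.0 CPM in control B cell-like cells, from 3, 5, 18 and 9 UMIs. At its ratio to Vsig4 in macrophage-like cells it would come to 23.0 and 18.5 CPM in NASH and 70.1 and 78.2 CPM in control. In B cell-like cells Cd5l (log2 1.42, edgeR adjusted p = 0.00232) and Clec1b (1.24, 0.0243) passed as higher. The ratio of Cd5l to Vsig4 UMIs there was 3.54 and 4.16 in NASH and 1.63 and 1.18 in control, beside 2.56 and 2.93 in NASH and 1.52 and 1.85 in control macrophage-like cells. In T cell-like cells (1.31% of 1759 genes past the threshold) and cycling C1q-low cells (2.01% of 2930), where only Vsig4 and Cd5l were tested, edgeR adjusted p was 0.424 and 0.721 for T cell-like and 0.0872 and 0.0953 for cycling C1q-low cells. The part of free macrophage RNA in these calls was not tested. Without control library 1 the Fcna calls in B cell-like (edgeR adjusted p = 0.271) and dendritic cell-like cells (0.321) were lost. The dendritic cell-like call was lost without NASH library 1 (0.0823) or 2 (0.0844) too. The Clec1b call in B cell-like cells was lost without NASH library 2 (0.0987) or control library 2 (0.302), under DESeq2 (adjusted p = 0.318) and with no limit on mitochondrial share (0.199). With no such limit the Fcna calls in B cell-like (edgeR adjusted p = 0.302) and plasmacytoid dendritic cell-like cells (0.665) were lost too.

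**Figure D5:**
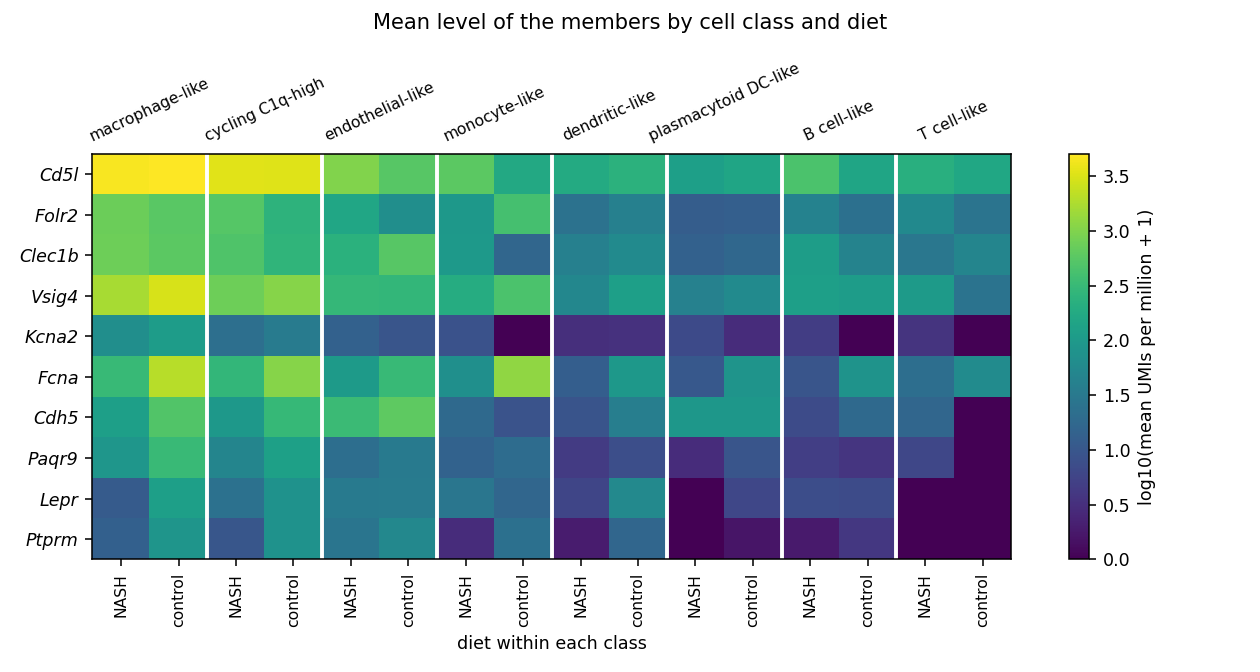
Mean level of each member, as log10 of CPM plus 1, in 8 cell classes, NASH column left of control column within each class. Most members are high in macrophage-like and cycling C1q-high cells, but Lepr and Ptprm average only 10.7 and 12.5 CPM in NASH macrophage-like cells. In endothelial-like cells Cd5l averages 1010 CPM in NASH and 542 CPM in control, Cdh5 331 and 615 CPM and Clec1b 233 and 543 CPM. Vsig4, at 294 and 286 CPM, and Fcna, at 103 and 313 CPM, are also found there. Cdh5 averages 90.6 and 90.8 CPM in plasmacytoid dendritic cell-like cells. The monocyte-like control values, Fcna among them, rest on 8 and 12 cells.

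Of 24 other Kupffer identity genes, all tested in macrophage-like cells, 15 fell, 2 rose (Il18bp and Cd207) and 7 did not pass, beside 21.1% lower and 23% higher over all genes. Their median log2 fold change was -1.20, against -0.02 over all genes and -0.99 for the 10 members. This list and the next were also drawn up with earlier results of these data known. Their counts, medians and p-values are therefore a description and no independent support. Most genes named from them were taken for the smallest p in this same fit. Mrc1, the mannose receptor, fell to 233 and 281 CPM in NASH against 1056 and 1184 CPM (log2 -1.75, edgeR adjusted p = 2.11e-05). Slc40a1, the iron exporter ferroportin, fell to 671 and 619 CPM against 2723 and 3795 CPM (log2 -1.96, edgeR adjusted p = 2.85e-05). Cd163, which takes up hemoglobin bound to haptoglobin, fell to 3.54 and 8.98 CPM against 1453 and 1439 CPM, and Dmpk, a protein kinase, to 141 and 142 CPM against 456 and 417 CPM. Timd4 fell to 40.0 and 68.7 CPM in NASH against 436 and 506 CPM (log2 -2.74, edgeR adjusted p = 0.000118). Clec4f fell to 1963 and 2720 CPM against 4665 and 4220 CPM (log2 -0.55, edgeR adjusted p = 0.0212), a call that was lost without NASH library 1 (0.281) or control library 1 (0.0582).

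Of 26 genes for binding and signalling partners of the members, 20 were tested, of which 8 fell, 3 rose (Itgax, Cd36 and Kcnab2) and 9 did not pass, with a median of -0.23. Partners of cadherins were among those that fell. Ctnnd1 (p120-catenin), which binds the tail of Cdh5, fell to 52.6 and 52.6 CPM in NASH against 220 and 226 CPM in control (log2 -1.71, SE 0.134, edgeR adjusted p = 1.32e-05). Ctnna1 (alpha-catenin), which links cadherin complexes to actin, fell to 71.4 and 59.2 CPM against 149 and 152 CPM (log2 -0.83, edgeR adjusted p = 0.00102), while Ctnnb1 (beta-catenin) did not pass (log2 -0.18, edgeR adjusted p = 0.370). Stat3, which carries leptin receptor signals, fell to 49.4 and 48.4 CPM against 101 and 94.6 CPM (log2 -0.63, edgeR adjusted p = 0.00350). The Stat3 call was lost with cells held to at least 500 genes and at most 5% mitochondrial UMIs (edgeR adjusted p = 0.109). Itgax, a subunit of complement receptor 4, rose to 91.0 and 78.2 CPM in NASH against 2.94 and 5.11 CPM in control (log2 4.79, SE 0.241, edgeR adjusted p = 9.35e-07). Syk, the kinase downstream of Clec1b, fell to 91.2 and 78.3 CPM against 148 and 190 CPM (log2 -0.62, edgeR adjusted p = 0.00903). Its log2 value had the sign of the list's median and the opposite sign to that of Clec1b. Il18bp, Cd207, Cd36, Kcnab2, Ctnnb1 and Syk were chosen for mention after their values were seen. The 6 partners not tested, which include podoplanin and the lectin-pathway genes Masp1, Masp2, Mbl1 and Mbl2, were at 1.46 CPM or less in every library.

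Over 35 sums of a class and library with at least 20 cells, the gene most like each member by Pearson correlation of log2(CPM + 1) described its company. Vsig4 was most like Cd5l (r = 0.97), Cd5l most like Fabp7 (0.98), Folr2 most like Hebp1 (0.92), Fcna most like Slc40a1 (0.93) and Cdh5 most like Tcn2 (0.83). Clec1b was most like Lgmn (0.90), Kcna2 most like Tmem26 (0.91), Paqr9 most like Ccl24 (0.90), Lepr most like Ctnnd1 (0.89) and Ptprm most like Aatk (0.90). Between members r ran from 0.51 for Cdh5 and Lepr to 0.97 for Vsig4 and Cd5l. The leading gene depends on which sums are used. Over 21 sums with at least 50 cells it stayed the same for Cd5l, Fcna and Lepr and was another gene for the other 7 members: Clec4f for Vsig4 and Paqr9, Cd5l for Folr2, Gnaq for Cdh5, Tspan4 for Clec1b, Creg1 for Kcna2 and Mpzl1 for Ptprm. The sums share 4 libraries and their free RNA, so these values describe likeness and carry no p.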

How the data were processed

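RNA was measured in 4 libraries, and the deposited values are UMI counts per gene and cell. The tools were Cell Ranger and Seurat and the build mm10, per the submitters' processing notes, which give no versions here. Deposited barcodes numbered 1639 and 1933 (NASH) and 1550 and 1805 (control), with 13749657, 15619962, 5513953 and 5684819 UMIs.

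A cell needed at least 200 genes and a mitochondrial share of 10% or less (filters removed 2.87% and 2.38% of NASH and 14.8% and 20.4% of control barcodes). The highest Scrublet scores, 0.8% per 1000 cells, were left out (20, 28, 14 and 17 cells). Scanpy 1.11.5 clustered the cells on 2000 variable genes without the members, with 30 components, 15 neighbours and Leiden resolution 1.0. A cluster took its class from fixed marker lists. Clusters with C1qa, C1qb and C1qc in at least 90% of cells were called macrophage-like unless 2 or more of their 10 leading genes marked another class; these were called cycling C1q-high where that class was cycling, and otherwise stayed unnamed. That rule was shaped by earlier results of these data, as were the members and lists. Clusters outside every class held 193 cells.

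UMIs were summed per library and class of at least 10 cells per library and tested with edgeR 4.0.16 (R 4.3.3: TMM, filterByExpr, robust quasi-likelihood F test, Benjamini-Hochberg, threshold 0.05), tested on simulated data. An exact permutation test of 2 against 2 libraries cannot go below p = 0.333. Alternatives covered scaling, DESeq2 1.42.0, low-count and cell filters, doublets, resolution, cell choice and single libraries. Shares and counts cover counting error only.

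Named genes were the members, Clec4f, Timd4, the 4 companions per list with the smallest p, the genes most like a member, members called in other classes, and the 3 genes leading each macrophage-like cluster. Gene positions come from GENCODE vM21, where 99.0% of the genes were found.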

Additional observations from a re-analysis of the deposited data

Results flagged for a closer look

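Clec1b differed between cell classes under the same contrast. Its log2 fold change, NASH over control, was -1.11 in endothelial-like cells and 1.10 in cycling C1q-high cells, a difference of -2.29 (SE 0.297) that passed edgeR's quasi-likelihood test with library as a block (adjusted p = 2.43e-05). Both NASH libraries were below both control libraries in endothelial-like cells, and both were above them in cycling C1q-high cells. Over 15 alternative settings the difference ran from -2.74 to -2.01, with edgeR adjusted p from 2.93e-14 to 0.00661. DESeq2 and the model with replicate number as a block were not run for this difference and are not among those settings. Endothelial markers were also lower in NASH endothelial-like cells, at 5372 and 6190 CPM summed against 14304 and 17872 CPM, and their part was not tested. The value in cycling C1q-high cells is not independent of the choice of members, which was made with macrophage levels known.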

How the results depend on the processing

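In macrophage-like cells 4521 genes were called. DESeq2 gave 2995 and a stricter cell filter (at least 500 genes, at most 5% mitochondrial UMIs) 2533, and leaving out 1 library gave 3039 to 4285. In endothelial-like cells 458 genes were called, with 179 under DESeq2, 193 with the members among the clustering genes, 288 at Leiden resolution 2.0, 276 with no limit on mitochondrial share, 256 with no doublets removed and 172 with 3 times as many removed. Leaving out 1 library gave 254 to 671. In cycling C1q-high cells 1287 genes were called, with 487 under DESeq2, 214 under the stricter filter and 767 to 1242 without 1 library. The replicate block moved the endothelial-like count to 694, the macrophage-like count to 4113 and the cycling count to 1540. The labels do not say whether replicate numbers pair libraries. In macrophage-like cells, deviations of same-numbered libraries correlated at r = -0.0357 over 10247 genes. With 2 libraries per diet this cannot exclude shared processing. The causes of these changes were not tested.

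The members' values in macrophage-like cells are a description, and their calls under the alternatives are not counted here. The sign of Cd5l turned without factors (-0.14, a setting added after the data had been seen) and with macrophages chosen cell by cell (-0.0688). The endothelial-like calls were lost for Clec1b with 3 times as many doublets removed (edgeR adjusted p = 0.0707), for Cdh5 with the same and DESeq2, and for Folr2 under 8 of 16 alternatives. Fcna in endothelial-like cells passed under 14 of 17. Under the stricter filter, which left 10 and 15 control cycling C1q-high cells, only Fcna and Cdh5 still passed in that class. Cd5l in B cell-like cells turned to log2 -0.42 at resolution 2.0 and -0.0677 with no limit on mitochondrial share. The number of companion genes called, of members higher with Clec4f and of members with lower shares stayed within 1.5 times of 28, 9 and 8. Low-count members, Lepr and Ptprm in particular, are limited by depth in single cells.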
